A study of Mus musculus with 13 samples.

Results

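The breakdown of the branched-chain amino acids was followed through 10 genes given by name: Bcat2, Bckdha, Bckdhb, Dbt, Dld, Bckdk, Ivd, Mccc1, Mccc2 and Auh. They are 10 of the 35793 genes in the count table, and all 10 passed the filter on low counts. Messenger RNA was sequenced from left ventricle outside the ischaemic zone of C57BL/6JO1aHsd mice, 8 to 10 weeks old when treatment began, in 3 groups. MI+FG-3149 (n = 5) had permanent ligation of the LAD, the left anterior descending coronary artery, which causes myocardial infarction (MI), and a mouse anti CTGF mAb at 10 mg/kg. MI+IgG (n = 5) had the same ligation and an antibody labelled mouse anti IgG ab at 10 mg/kg. Sham (n = 3) had sham surgery and no treatment, so the MI groups differ from it by both the ligation and an antibody injection, and these cannot be told apart. The time point of every library was labelled 1W+6W, which the labels do not spell out, and CTGF is connective tissue growth factor.

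Leucine, isoleucine and valine are first stripped of their amino group by an aminotransferase, in most tissues the mitochondrial enzyme encoded by Bcat2. The resulting keto acids are then committed to oxidation by the branched-chain keto acid dehydrogenase complex, which a kinase switches off by phosphorylation and a phosphatase switches on again. From there leucine, valine and isoleucine each follow an arm of their own inside the mitochondrion, ending in acetyl-CoA, acetoacetate or, by way of propionyl-CoA, succinyl-CoA. The heart is among the tissues that oxidise these amino acids.

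Total estimated counts were 10954901 to 12794791 in MI+FG-3149, 13084651 to 17567207 in MI+IgG and 12025845 to 14999773 in sham. Ctgf, the gene of the antibody's target, was at 182.7 to 325.1 CPM (counts scaled to library size, the unit used below unless another is named) in MI+FG-3149, 233.3 to 439.2 CPM in MI+IgG and 37.8 to 46.9 CPM in sham. An antibody acts on the protein, so this level does not check the treatment labels. The summed levels of fibroblast markers and of macrophage markers were higher in both MI groups than in sham. Fibroblast markers (14 genes) summed to 4279 to 4916 CPM in MI+FG-3149, 4638 to 6703 CPM in MI+IgG and 2851 to 3029 CPM in sham. Macrophage markers summed to 516.7 to 821.4 CPM in MI+FG-3149, 480.9 to 739.1 CPM in MI+IgG and 353.5 to 362.2 CPM in sham. Of the fibroblast markers 12 of 14 were higher and 1 lower in MI+IgG against sham, of the macrophage markers 9 of 11 tested were higher, and of the endothelial markers 1 of 12 was higher and 2 lower. Among all tested genes 17.8% were called higher and 15.9% lower in that comparison. Cardiomyocyte markers (14 genes) summed to 89324 to 97194 CPM in MI+FG-3149, 84187 to 93512 CPM in MI+IgG and 97699 to 105180 CPM in sham, so the labelled tissue carries its defining genes in every library. Of these 14, 5 were lower (Myh6, Myl2, Pln, Ryr2 and Tnni3), 2 higher (Tcap and Myom1) and 7 not called in MI+IgG against sham, with a median log2 fold change of 0.06, so the lower sum was not shared by the whole list. In bulk tissue fewer cells of a type and less RNA per cell cannot be told apart.

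The stretches of 250 bases before the annotated starts (RefSeq, GRCm38.p6) are shown for the genes on which the results turn: Bckdhb, which has 2 annotated starts, Ivd, Mccc1 and Mccc2, which share a repeated motif, and Bckdk and Bckdha, which moved least in MI+IgG against sham. Each is written 5′ to 3′ on the gene's strand and ends at the base before the start. Capitals mark matches, on either strand, to the CCAAT box (CCAAT, read ATTGG on the other strand), to the GC box (CCCGCCC, read GGGCGGG on the other strand) or to the E-box, the palindrome CACGTG. Bckdhb has a window before the start of the counted transcript and a second window 23644 bases upstream of it. The deposited exon entries of Bckdhb begin at the downstream start, so reads of an exon at the upstream start are not in its level, and exon 1 below means the first counted exon.
Bckdhb before the counted start, chr9:83948531-83948780, + strand: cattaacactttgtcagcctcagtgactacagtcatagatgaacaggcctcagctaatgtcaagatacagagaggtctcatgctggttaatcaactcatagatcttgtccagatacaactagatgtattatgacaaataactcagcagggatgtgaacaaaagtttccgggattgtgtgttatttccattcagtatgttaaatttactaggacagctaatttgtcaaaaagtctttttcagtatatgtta
Bckdhb upstream start, chr9:83924887-83925136, + strand: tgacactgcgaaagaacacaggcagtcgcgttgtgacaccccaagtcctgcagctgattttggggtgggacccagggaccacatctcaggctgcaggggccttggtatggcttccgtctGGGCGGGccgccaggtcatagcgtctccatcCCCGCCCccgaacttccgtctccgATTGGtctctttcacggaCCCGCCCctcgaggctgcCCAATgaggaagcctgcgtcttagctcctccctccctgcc
Ivd, chr2:118861744-118861993, + strand: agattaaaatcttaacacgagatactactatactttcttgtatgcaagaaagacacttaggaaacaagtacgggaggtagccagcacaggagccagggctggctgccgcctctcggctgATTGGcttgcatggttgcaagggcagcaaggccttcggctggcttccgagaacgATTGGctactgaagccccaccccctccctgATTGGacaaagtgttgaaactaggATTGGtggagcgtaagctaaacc
Mccc1, chr3:36000679-36000928, - strand: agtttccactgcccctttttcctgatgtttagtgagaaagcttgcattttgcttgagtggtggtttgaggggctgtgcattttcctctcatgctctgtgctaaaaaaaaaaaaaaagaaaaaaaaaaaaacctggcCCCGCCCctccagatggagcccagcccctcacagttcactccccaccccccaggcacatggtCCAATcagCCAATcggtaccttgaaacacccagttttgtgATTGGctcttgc
Mccc2, chr13:100015640-100015889, - strand: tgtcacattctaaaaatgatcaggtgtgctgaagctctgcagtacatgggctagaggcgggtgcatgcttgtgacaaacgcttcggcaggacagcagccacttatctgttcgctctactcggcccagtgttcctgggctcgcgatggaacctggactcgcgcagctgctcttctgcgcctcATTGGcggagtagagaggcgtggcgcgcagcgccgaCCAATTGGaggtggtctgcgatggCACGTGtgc
Bckdk, chr7:127903823-127904072, + strand: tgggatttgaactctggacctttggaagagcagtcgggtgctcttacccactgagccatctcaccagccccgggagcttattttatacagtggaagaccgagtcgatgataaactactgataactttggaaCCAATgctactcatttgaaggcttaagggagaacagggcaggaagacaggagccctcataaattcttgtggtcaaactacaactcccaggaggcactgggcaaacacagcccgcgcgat
Bckdha, chr7:25658762-25659011, - strand: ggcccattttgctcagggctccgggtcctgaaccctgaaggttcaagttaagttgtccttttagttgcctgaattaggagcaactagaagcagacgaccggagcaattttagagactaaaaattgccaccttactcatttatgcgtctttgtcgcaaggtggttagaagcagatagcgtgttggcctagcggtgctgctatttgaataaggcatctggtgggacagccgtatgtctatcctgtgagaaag

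A window was matched for 9 of the 10 genes, and Dbt had none. CCAAT was present in the window nearest the counted start of 5 of 9 genes, against 34.5% of 27025 windows of all genes. Ivd held 4 matches, and Mccc1 and Mccc2 held 3 each. The GC box was present in 2 of 9, against 23.6% of all windows. The E-box was present in 1 of 9, Mccc2, against 6.05%. AAGGTCA, searched on both strands like the others and known as an element bound by oestrogen-related receptors, was present in 0 of 9, against 4.05%. All these counts depend on the choice of window. They leave out the upstream window of Bckdhb, which holds CCAAT and GC boxes, and a further window of Bcat2, which holds no match. The windows of Bckdhb differed in composition: the window before the counted start was 36.4% G and C with 1 CpG, and the upstream window was 63.2% G and C with 15 CpG, against medians of 52.0% and 6 over all genes. These are matches of letters and say nothing of binding.

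The comparison of MI+IgG with sham asked how the pathway stood in non-ischaemic muscle after infarction. Transcripts of 9 of the 10 genes were lower in MI+IgG than in sham, and all 5 MI+IgG libraries lay below all 3 sham libraries for each of the 9. Over all 13434 tested genes, 33.7% were called in that comparison 15.9% were called lower and 17.8% higher, and 17.7% had every MI+IgG library below every sham library. The fold change was below 0 for all 10 genes and for 50.2% of all tested genes. The median log2 fold change of the 10 genes was -0.30, a change of -18.8%, while the median over all tested genes was 0. Calls are those of edgeR's quasi-likelihood test at a Benjamini-Hochberg adjusted p under 0.05 over all tested genes. The 10th gene, Bckdk, was not called.

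**Figure D1:**
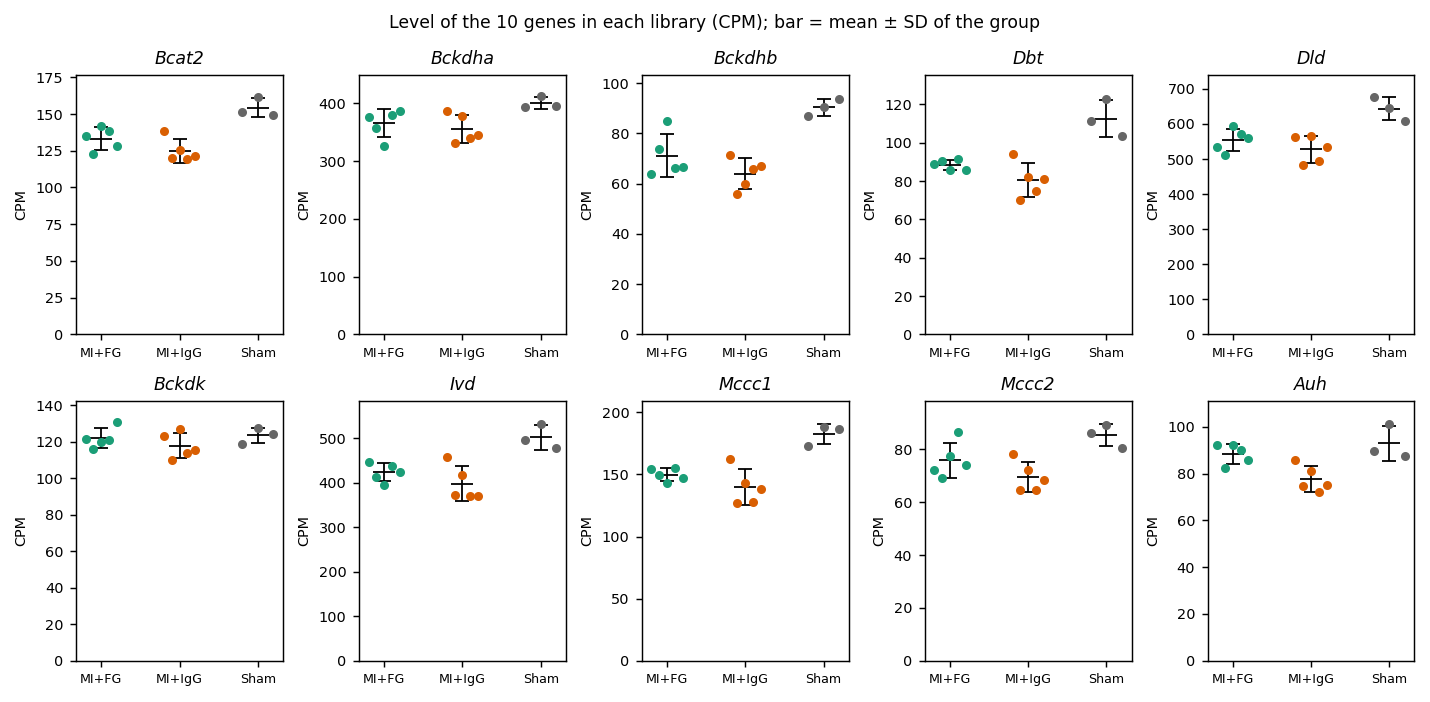
Level of each of the 10 genes (vertical axis, CPM, from 0) in each library of MI+FG-3149, MI+IgG and sham; points are libraries and bars are the group mean ± SD. The MI+IgG libraries lie below the sham libraries in 9 panels and overlap them in the panel of Bckdk.

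Bcat2 (Entrez gene 12036, mm10 chromosome 7, 45570153 to 45589710), the mitochondrial aminotransferase, stood at 134.7, 122.8, 141.8, 138.7 and 128.1 CPM in MI+FG-3149, at 138.8, 119.8, 125.6, 119.4 and 121.2 CPM in MI+IgG, and at 151.5, 161.5 and 149.4 CPM in sham. Every infarcted heart lay below every sham heart, and both MI groups overlapped. Its log2 fold change in MI+IgG against sham was -0.30 (SE 0.061, edgeR adjusted p = 0.000821).

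Bckdha (Entrez gene 12039, chromosome 7, 25629852 to 25658761) encodes the alpha subunit of the E1 decarboxylase, which carries the site that the kinase phosphorylates. It stood at 377.2, 357.6, 326.2, 379.8 and 386.8 CPM in MI+FG-3149, at 386.4, 331.8, 377.9, 340.0 and 345.6 CPM in MI+IgG, and at 393.2, 412.3 and 395.1 CPM in sham. The highest library of each MI group lay just below the lowest sham library. The change in MI+IgG against sham was the smallest of the 9 called (log2 -0.17, SE 0.063, edgeR adjusted p = 0.0464), and 18 of 27 other settings lost the call, with adjusted p from 0.0174 to 0.359 over the 27. Part of its span lies opposite B3gnt8, and the strand setting of the counting was not given, so its level is uncertain to that extent.

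Bckdhb (Entrez gene 12040, chromosome 9, 83948781 to 84124240), the beta subunit of E1, stood at 63.9, 73.7, 84.9, 66.3 and 66.8 CPM in MI+FG-3149, at 71.4, 56.0, 60.0, 65.9 and 67.1 CPM in MI+IgG, and at 87.1, 90.3 and 93.9 CPM in sham. The sham libraries stood above all others, with the third MI+FG-3149 library the nearest to them. Its log2 fold change in MI+IgG against sham was -0.50 (SE 0.086, edgeR adjusted p = 0.000268).

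Dbt (Entrez gene 13171, chromosome 3, 116513079 to 116549981) encodes the E2 acyltransferase that forms the core of the complex. It stood at 88.9, 90.4, 86.0, 91.6 and 85.6 CPM in MI+FG-3149, at 94.2, 70.4, 82.3, 74.9 and 81.1 CPM in MI+IgG, and at 111.4, 122.9 and 103.7 CPM in sham. No infarcted heart reached the sham range, and the MI+FG-3149 libraries lay inside the wider MI+IgG range. The log2 fold change in MI+IgG against sham was -0.49 (SE 0.075, edgeR adjusted p = 8.72e-05).

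Dld (Entrez gene 13382, chromosome 12, 31331562 to 31351437) encodes the E3 dehydrogenase, which the pyruvate and 2-oxoglutarate complexes use as well. It ranged from 510.8 to 594.1 CPM in MI+FG-3149, from 482.1 to 566.0 CPM in MI+IgG and from 609.3 to 675.6 CPM in sham. Its log2 fold change in MI+IgG against sham was -0.29 (SE 0.064, edgeR adjusted p = 0.00211). On reads of its last exon alone the log2 fold change was -0.62 in MI+IgG (edgeR adjusted p = 0.000117) and -0.65 in MI+FG-3149 (edgeR adjusted p = 0.000112), each against sham, while the median over its exons was -0.18 in MI+IgG against sham. Of 8 genes of the related complexes that share or resemble these parts (pyruvate and 2-oxoglutarate dehydrogenase and the glycine cleavage system), 6 were lower in MI+IgG than in sham and 0 higher, with a median log2 fold change of -0.19. Among all tested genes 15.9% were called lower in that comparison.

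Bckdk (Entrez gene 12041, chromosome 7, 127904073 to 127909664), the kinase that inactivates the complex, stood at 121.7, 115.9, 119.9, 121.0 and 130.8 CPM in MI+FG-3149, at 123.3, 109.8, 126.9, 114.0 and 115.5 CPM in MI+IgG, and at 118.8, 127.5 and 124.1 CPM in sham. All 3 groups overlapped. Its log2 fold change was -0.07 in MI+IgG against sham (SE 0.057, edgeR adjusted p = 0.387), which does not show that the levels were equal.

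In the leucine arm, Ivd (Entrez gene 56357, chromosome 2, 118862000 to 118881357), the isovaleryl-CoA dehydrogenase, ranged from 395.9 to 447.2 CPM in MI+FG-3149, from 370.1 to 458.4 CPM in MI+IgG and from 478.7 to 532.4 CPM in sham. Mccc1 (Entrez gene 72039, chromosome 3, 35959306 to 36000678), the biotin-bearing subunit of methylcrotonyl-CoA carboxylase, ranged from 143.0 to 154.9 CPM in MI+FG-3149, from 126.9 to 162.6 CPM in MI+IgG and from 173.2 to 187.7 CPM in sham. For both genes the MI ranges ended below the sham range. The log2 fold changes in MI+IgG against sham were -0.33 for Ivd (SE 0.069, edgeR adjusted p = 0.00105) and -0.39 for Mccc1 (SE 0.068, edgeR adjusted p = 0.000287). Mccc1 has antisense neighbours in the annotation, which leaves its level uncertain in the way given for Bckdha.

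Mccc2 (Entrez gene 78038, chromosome 13, 99948532 to 100015639), the other subunit of that carboxylase, ranged from 69.4 to 86.4 CPM in MI+FG-3149, from 64.5 to 78.2 CPM in MI+IgG and from 80.7 to 89.3 CPM in sham. The fourth MI+FG-3149 library, the highest of its group, lay inside the sham range. Its log2 fold change in MI+IgG against sham was -0.30 (SE 0.074, edgeR adjusted p = 0.00445). Auh (Entrez gene 11992, chromosome 13, 52835110 to 52929677), the methylglutaconyl-CoA hydratase, stood at 92.2, 82.2, 92.1, 89.9 and 85.8 CPM in MI+FG-3149, at 85.7, 74.6, 81.1, 72.1 and 74.9 CPM in MI+IgG, and at 89.7, 101.4 and 87.5 CPM in sham. Sham and MI+FG-3149 overlapped, and MI+IgG lay below sham. Its log2 fold change in MI+IgG against sham was -0.26 (SE 0.066, edgeR adjusted p = 0.00547).

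Libraries within a group tended to stand high or low for several of these genes at once. In MI+IgG, replicate 1 was the highest of its group for 8 of the 10 genes, replicate 2 the lowest for 6 and replicate 4 the lowest for 4. In sham, replicate 2 was the highest for 8 of 10. Levels can be compared between genes by RPKM, reads scaled to transcript length and library size. Dld was highest, at 244.2 ± 9.36 RPKM in MI+FG-3149 (SD, n = 5), 237.4 ± 15.9 RPKM in MI+IgG (SD, n = 5) and 286.2 ± 15.7 RPKM in sham (SD, n = 3). Ivd averaged 203.1 ± 11.1, 194.6 ± 19.1 and 242.4 ± 10.6 RPKM in MI+FG-3149, MI+IgG and sham, and Bckdha 204.1 ± 14.8, 202.9 ± 13.4 and 225.3 ± 3.12 RPKM. Ivd stood above Bckdha in all 3 sham libraries, and their ranges overlapped in both MI groups. Dbt was lowest, at 26.6 ± 1.20 RPKM in MI+FG-3149, 24.7 ± 2.73 RPKM in MI+IgG and 34.1 ± 2.58 RPKM in sham. In sham the genes between ran, from high to low, Bcat2, Auh, Bckdhb, Mccc1, Bckdk and Mccc2, and of these neighbours Auh and Bckdhb had overlapping libraries.

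Among the tested genes outside the 10, the one whose pattern over the 13 libraries was most like each of the 10 was found by the root mean square difference of centred log2 CPM. The nearest was Ptcd3 for Bcat2 (0.033), Trap1 for Bckdha (0.045), Oat for Bckdk (0.042), Mut for Ivd (0.041) and for Mccc1 (0.050), and Dcun1d5 for Dld (0.038). For Auh it was Fndc5 (0.040), for Mccc2 Hsd17b10 (0.058, where Bcat2, one of the 10, was nearer at 0.057), for Dbt Lrrc14b (0.058) and for Bckdhb Hist2h2be (0.067). This is a description over libraries that share their groups.

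**Figure D2:**
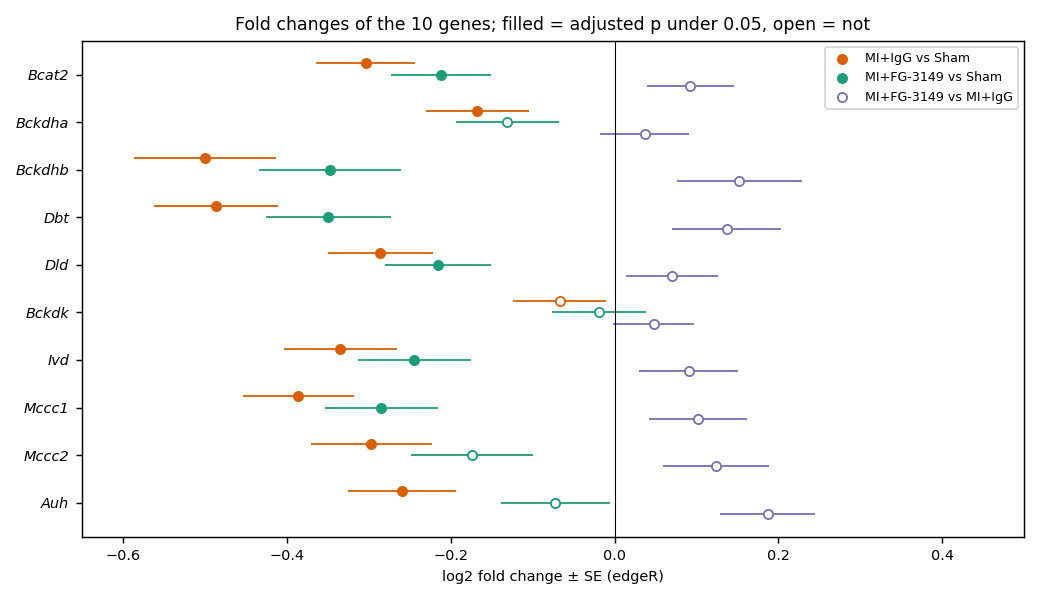
Log2 fold change ± SE (horizontal axis, edgeR) of the 10 genes in MI+IgG against sham, MI+FG-3149 against sham and MI+FG-3149 against MI+IgG; filled points have an adjusted p under 0.05. All points of both comparisons with sham lie below 0 and all points of the comparison between the MI groups lie above 0.

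In MI+FG-3149 against sham, 6 of the 10 genes were lower: Bcat2, Bckdhb, Dbt, Dld, Ivd and Mccc1. Of all tested genes, 29.5% were called in that comparison 13.9% called lower and 15.6% called higher. All 5 MI+FG-3149 libraries lay below all 3 sham libraries for 7 of the 10 genes, the 6 and Bckdha, and for 15.6% of all tested genes, and the fold change was below 0 for all 10 and for 50.2% of all. The largest of these changes were those of Dbt (log2 -0.35, SE 0.076, edgeR adjusted p = 0.00225) and Bckdhb (log2 -0.35, SE 0.087, edgeR adjusted p = 0.00615). Bcat2 changed by -0.21, Dld by -0.22, Ivd by -0.24 and Mccc1 by -0.28 on the log2 scale. The other 4 did not pass: Bckdha at -0.13, Mccc2 at -0.17, Auh at -0.07 and Bckdk at -0.02 (edgeR adjusted p = 0.126, 0.0855, 0.441 and 0.831). Without sham replicate 2, 3 of the 10 were called. Both comparisons share the sham libraries, so their common direction is not independent evidence.

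The comparison of MI+FG-3149 with MI+IgG asked whether the anti CTGF antibody altered the pathway in infarcted hearts. None of the 10 genes was called by edgeR's quasi-likelihood test (0 also by DESeq2 and by limma voom), and 1 reached an unadjusted p under 0.05. Of all tested genes, 1.07% were called and 13.8% reached an unadjusted p under 0.05. All 10 log2 fold changes were above 0, from 0.04 to 0.19 with a median of 0.10, where 45.9% of all tested genes had a fold change above 0 and their median was -0.01. Medians of this size were not particular to the 10. They were 0.10 for 20 genes of general mitochondrial content, 0.08 for 8 genes of related complexes and 0.07 for 18 genes further along the arms. Medians of 6 transporters (-0.04) and of 3 genes, the regulators and Bcat1 (-0.10), lay below 0. For 0 of the 10 did the libraries of both groups separate, against 1.9% of all tested genes with every MI+FG-3149 library above every MI+IgG library. The gene past the unadjusted threshold was Auh (log2 0.19, SE 0.058, edgeR adjusted p = 0.138), which passed the adjusted one without MI+IgG replicate 1 (edgeR adjusted p = 0.0425).

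The position of reads along the transcripts differed between the same groups. Over 5115 genes with a single transcript, first exons held 3.44% to 3.80% of reads in MI+FG-3149, 2.02% to 2.70% in MI+IgG and 1.83% to 2.02% in sham. The difference between MI+FG-3149 and MI+IgG had p = 0.00794 (2-sided exact permutation test), the smallest that 252 groupings can give. MI+FG-3149 against sham had p = 0.0357, the smallest that 56 groupings can give, and MI+IgG against sham had p = 0.0714 (2-sided exact permutation tests). The difference in read position and the treatment cannot be told apart by group.

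In MI+FG-3149 against MI+IgG, the 7 first exons of the 10 genes with a mean of at least 20 reads had a median log2 ratio of 0.96, and the 10 last exons had a median of 0.04. For Auh the ratio was 1.72 in exon 1, 0.76 in exon 2, 0.46 in exon 3 and 0.05 in the last exon. For Dld it was 1.41 in exon 1 and -0.09 in the last exon. With only the reads of the last exon, Bckdha and Dld changed sign between the MI groups (log2 -0.01 and -0.03). The part of read position in the values above 0 was not tested further.

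In MI+IgG against sham the lower levels were seen towards the 3′ end: all 67 exon entries nearer the 3′ end of the 10 genes were lower, with a median log2 ratio of -0.31. Of those nearer the 5′ end 44 of 56 were lower, with a median of -0.21, and the first exons had a median of 0.08. Auh had the highest first exon, at 0.88, with -0.39 in its last exon, and the first exons of Bckdha, Dld and Mccc2 were at 0.10, 0.08 and 0.12. Last exons had a median of -0.41, and all 10 were lower. The median share of reads in last exons was itself lower in both MI groups than in sham. It was 39.3% to 41.2% in MI+FG-3149, 40.2% to 42.4% in MI+IgG and 43.8% to 44.3% in sham. The part of this share in the last-exon values of the 10 genes was not tested. Fitted on last-exon reads alone, 7 of the 10 genes were called lower in MI+IgG against sham, beside 1710 of all 12389 tested genes. In MI+FG-3149 against sham 5 of the 10 were called lower, beside 1426 of 12389. Bckdha was at -0.10 in MI+IgG against sham in that fit (edgeR adjusted p = 0.359).

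**Figure D3:**
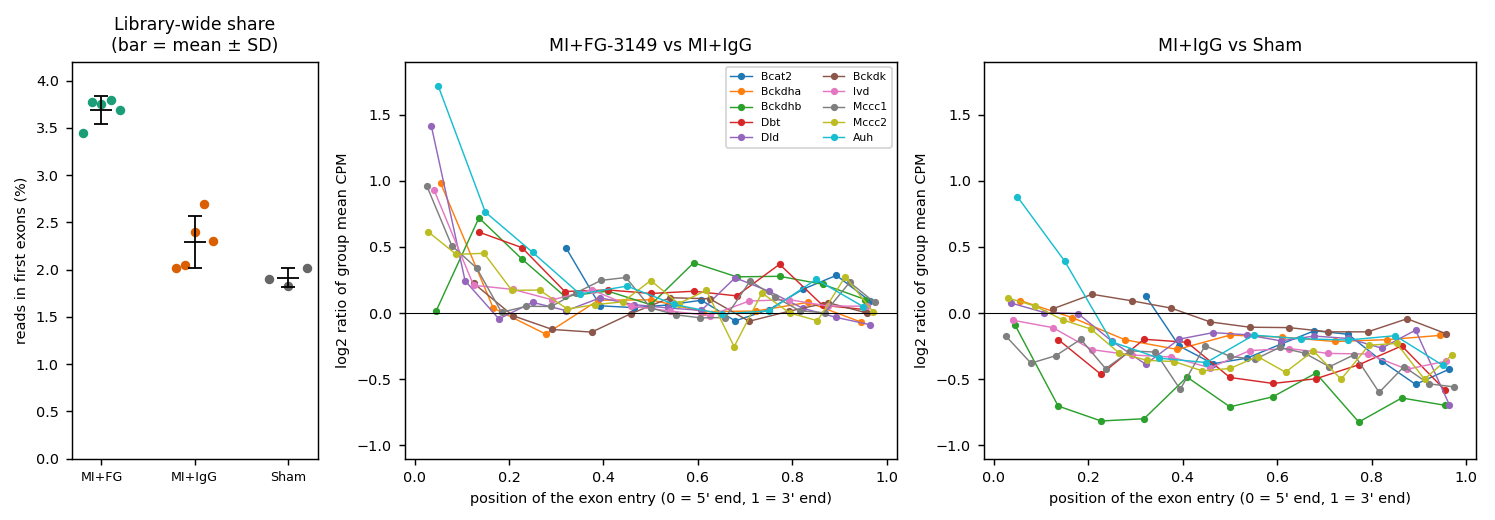
Left, share of reads in first exons over 5115 genes (percent, from 0) by library, with group mean ± SD; middle and right, log2 ratio of group mean CPM for each exon entry of the 10 genes against its place from the 5′ end (0) to the 3′ end (1). Ratios of MI+FG-3149 against MI+IgG are highest at the 5′ end and near 0 at the 3′ end, and those of MI+IgG against sham lie below 0 from the middle of the genes to the 3′ end.

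In Bckdhb, as in several of the 10 genes, exon 1 moved less than the exons after it, and here it held a large part of the reads. Exon 1 of the counted transcript, which begins right after the first Bckdhb window shown above, averaged 21.5 ± 5.03 CPM in MI+FG-3149 (SD, n = 5), 21.3 ± 3.73 CPM in MI+IgG (SD, n = 5) and 22.7 ± 1.29 CPM in sham (SD, n = 3), and the groups overlapped. Exons 2 to 11 together averaged 49.6 ± 4.96 CPM in MI+FG-3149, 42.8 ± 6.81 CPM in MI+IgG and 67.7 ± 2.60 CPM in sham (same n), with every infarcted heart below every sham heart. The log2 ratio of MI+IgG to sham was -0.09 in exon 1 and lay between -0.45 and -0.82 in the other 10 exons. Exon 1 held 2.19 reads per base, against 0.28 to 1.03 in exons 2 to 11. With first exons left out of all genes, the log2 fold change of Bckdhb was -0.66 in MI+IgG against sham and -0.41 in MI+FG-3149 against sham.

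**Figure D4:**
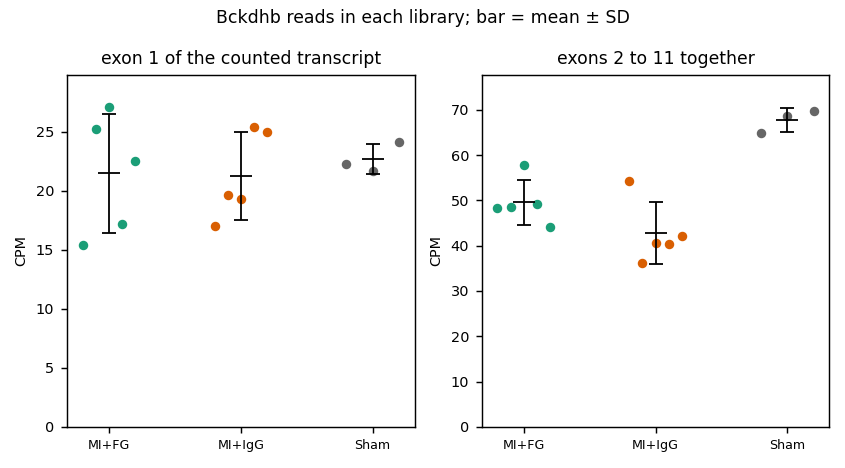
Bckdhb reads (CPM, from 0) in exon 1 of the counted transcript and in exons 2 to 11 together, by library, with group mean ± SD. The 3 groups overlap in exon 1, and the sham libraries lie above all MI libraries in the other exons.

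Against sham, the fold changes of the phosphatase that reactivates the complex were larger in size than those of its kinase. Ppm1k, which removes the phosphate that Bckdk adds, stood at 111.0, 110.7, 119.1, 93.4 and 104.7 CPM in MI+FG-3149, at 127.6, 90.3, 107.9, 96.1 and 99.0 CPM in MI+IgG, and at 172.7, 167.3 and 159.9 CPM in sham. It was lower in MI+IgG (log2 -0.68, SE 0.092, edgeR adjusted p = 4.52e-05) and in MI+FG-3149 (log2 -0.63, SE 0.093, edgeR adjusted p = 0.000155), each against sham. Within libraries, the log2 ratio of Bckdk to Ppm1k averaged 0.18 ± 0.16 in MI+FG-3149, 0.19 ± 0.13 in MI+IgG and -0.43 ± 0.09 in sham (SD, n = 5, 5 and 3).

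The Bckdk to Ppm1k ratio was higher by 0.62 in MI+IgG and by 0.61 in MI+FG-3149, each against sham, with no overlap of libraries. Each had p = 0.0357 (2-sided exact permutation test), the smallest that the design allows, and an adjusted p = 0.0804 over the 18 exact tests of 6 gene pairs, so neither passed the correction. The ratio of Bckdha to Bckdhb was 0.33 higher and that of Dbt to Bckdha 0.32 lower in MI+IgG than in sham on the log2 scale, with the same exact p and adjusted p. Of the 18 tests, 0 passed after adjustment. A test against sham at its smallest exact p can pass only if most of the 18 are as small. The adjusted values therefore cannot decide on these differences.

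Klf15, a transcription factor that promotes this pathway in the heart, did not pass (log2 -0.05 in MI+IgG against sham, SE 0.123, edgeR adjusted p = 0.792). Bcat1, the cytosolic aminotransferase, was at 0.92 to 1.46 CPM in MI+FG-3149, 1.23 to 2.65 CPM in MI+IgG and 0.75 to 1.02 CPM in sham. It was higher in MI+IgG than in sham (log2 1.03, SE 0.304, edgeR adjusted p = 0.014), at a level far below that of Bcat2 in every library.

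Further along the arms, 13 of 18 genes were lower in MI+IgG than in sham and 0 were higher, with a median log2 fold change of -0.23. In MI+FG-3149 against sham 10 of 18 were lower and 0 higher, and between the MI groups 0 of 18 were called. Among all tested genes 15.9% were called lower in MI+IgG and 13.9% in MI+FG-3149, each against sham, and 1.07% were called between the MI groups. In the valine arm 3 of 5 were lower in MI+IgG against sham, led by Aldh6a1, the methylmalonate semialdehyde dehydrogenase (log2 -0.62, SE 0.077, edgeR adjusted p = 1.23e-05), and Echs1, the short-chain enoyl-CoA hydratase, at -0.36. Hibch and Acad8 of the same arm did not pass, at 0.01 and -0.09.

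In the isoleucine arm 3 of 3 were lower in MI+IgG than in sham, among them Hsd17b10 at -0.34 and Acat1, the acetoacetyl-CoA thiolase, at -0.21 on the log2 scale. In the propionyl-CoA branch 7 of 8 were lower: Pcca, the biotin-bearing subunit of propionyl-CoA carboxylase, changed by -0.42 and Mut, the methylmalonyl-CoA mutase, by -0.35. Pccb, the other carboxylase subunit, changed by -0.16.

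**Figure D5:**
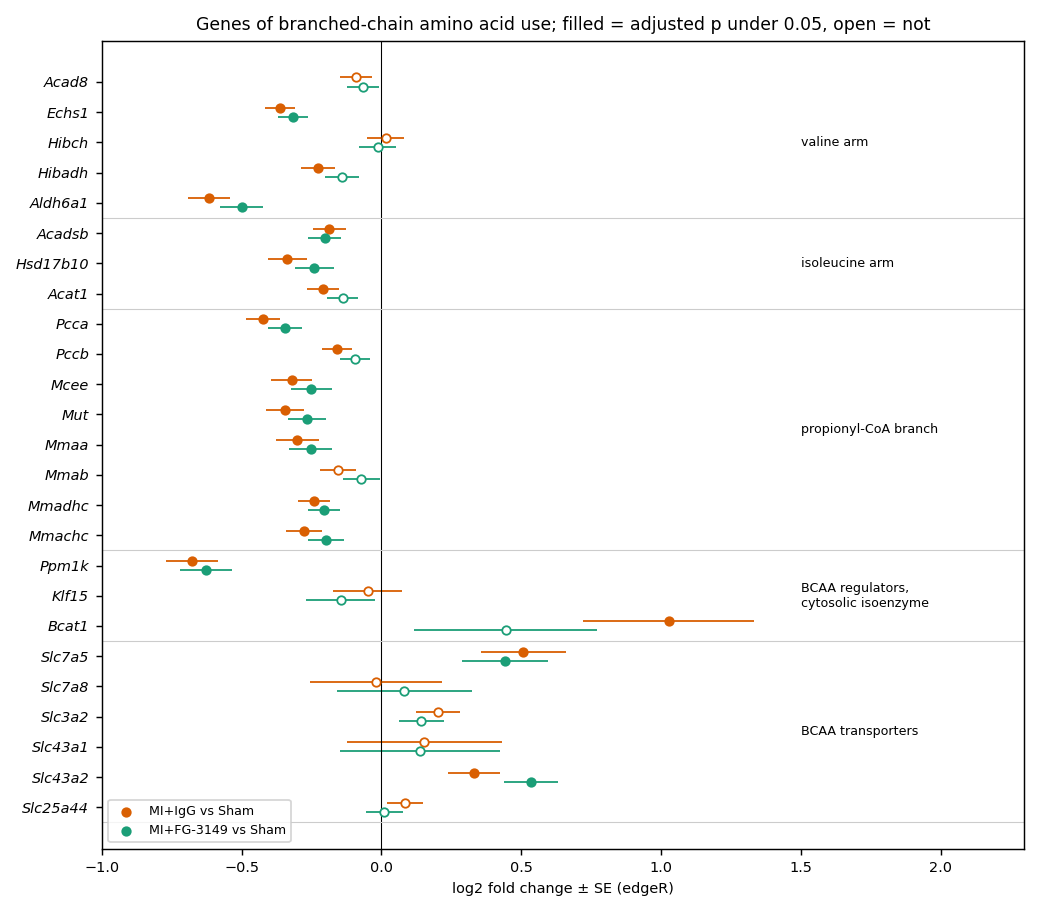
Log2 fold change ± SE (horizontal axis, edgeR) of other genes of branched-chain amino acid use, grouped by arm, in MI+IgG against sham and MI+FG-3149 against sham; filled points have an adjusted p under 0.05. Filled points of the arms lie below 0, and those of the transporters lie above 0.

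Of 6 transporters, 2 were higher in MI+IgG than in sham and 0 lower, a share called near the 33.7% of all tested genes, so the count says nothing particular of the list. They were Slc7a5, a plasma membrane carrier of large neutral amino acids, at 0.51 and Slc43a2, another such carrier, at 0.33 on the log2 scale. The same 2 were higher in MI+FG-3149 against sham, at 0.44 and 0.53. Slc25a44, the mitochondrial carrier of these amino acids, did not pass (0.08 in MI+IgG against sham, edgeR adjusted p = 0.341).

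Other mitochondrial genes moved in part alongside. Of 20 genes of general mitochondrial content, 9 were lower in MI+IgG than in sham and 0 higher, with a median log2 fold change of -0.13, among them Cs, citrate synthase, at -0.38. In MI+FG-3149 against sham 6 were lower and 1 higher, with a median of -0.06. The share called lower among all tested genes was 15.9% in MI+IgG and 13.9% in MI+FG-3149, each against sham. Whether the pathway fell further than the mitochondrial list was not tested. Of 14 tested clock genes, 6 were higher and 3 lower in MI+IgG than in sham. With the level of Arntl, a core clock gene, as a covariate, 7 of the 10 pathway genes were called lower in MI+IgG and 2 in MI+FG-3149, each against sham. In that fit 1065 and 993 of all 13434 tested genes were called lower. Arntl was at 2.77 to 18.5 CPM in MI+FG-3149, 2.46 to 15.8 CPM in MI+IgG and 31.7 to 37.4 CPM in sham. Its level and the infarction cannot be told apart against sham, so this fit cannot decide on clock phase. The part of cell makeup, mitochondrial content and clock phase in the levels of the 10 genes was not tested further.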

How the data were processed

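Messenger RNA of 13 libraries was sequenced as stranded single reads of 75 bases on a single flow cell, per the labels' protocols. Tables of estimated counts (by gene and by exon) and of RPKM (by transcript) were deposited by the authors. Per the submitters' processing notes the build was mm10, and the aligner, counter and strand setting are not given in the sources used here. Of the deposited gene counts above 0, 79.4% lay within 0.01 of a whole number. Counts were rounded, 379 repeated-symbol entries left out, and genes kept by filterByExpr (13434). All libraries were fitted together in edgeR 4.0.16 (R 4.3.3) with TMM factors, robust quasi-likelihood and no covariate, with Benjamini-Hochberg adjustment over all genes. The fit was tested on simulated data. CPM used TMM factors, and log2 CPM a prior count of 2. Exon ratios used entries with a mean of at least 20 reads. Ratios within libraries were tested by 2-sided exact permutation. Alternatives included DESeq2 1.42.0 and limma 3.58.1. Only the titles mark replicates as separate samples, so p-values measure the spread between libraries. The genes and lists were chosen with earlier results of these data known, and all 10 genes were named by rule. Of the 3 tested genes nearest to each in pattern, the nearest is given. Some genes counted in the lists are not reported here.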

Additional observations from a re-analysis of the deposited data

Results flagged for a closer look

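A library far from the others of its group was found in 2 of 56 groups of values, where chance flags about 1 in 20. In MI+IgG, replicate 1 had the lowest log2 ratio of Bckdk to Bckdha, -1.65, with a gap to the next library of 0.72 of the range of the group. The same library had the lowest log2 ratio of Bckdk to Ppm1k, -0.0500, with a gap of 0.82 of the range, and the other 4 libraries lay between 0.22 and 0.28. Replicate 1 is also the library that was highest of its group for 8 of the 10 pathway genes.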

How the results depend on the processing

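Over 27 alternatives, the fold changes of all 10 genes in MI+IgG against sham kept their sign. Calls were lost there for Bckdha under 18 alternatives, for Auh under 2 and for Mccc2 under 1. In MI+FG-3149 against sham, Bckdk changed sign to 0.00438 without Sham replicate 2, to 0.00355 without MI+FG-3149 replicate 2 and to 0.0102 with first exons left out (leaving out one library, -0.0464 to 0.00438). Leaving out one library gave 7 to 9, 3 to 7 and 0 to 1 of the 10 genes called in MI+IgG against sham, MI+FG-3149 against sham and MI+FG-3149 against MI+IgG, and 3329 to 4808, 2641 to 4088 and 68 to 271 genes in all. With Arntl as a covariate, 2619 genes were called in MI+IgG against sham, and 2387 genes and 2 of the 10 in MI+FG-3149 against sham. For MI+FG-3149 against MI+IgG, 279 genes were called by DESeq2, 24 by limma on RPKM without a filter, 83 with only both groups, 70 without MI+IgG replicates 4 and 5, 81 on last-exon reads and 52 with first exons left out, against 144. These last 2 alternatives were chosen after seeing the data, and on last-exon reads Bckdha and Dld changed sign to -0.0108 and -0.0333. Between the MI groups, leaving out one library moved the log2 ratio of Bckdk to Ppm1k over -0.0656 to 0.0363, of Bckdk to Bckdha over -0.023 to 0.0288 and of Mccc1 to Mccc2 over -0.0481 to 0.0189, all across 0. The cause was not tested. Deviations of same-numbered libraries of different groups had correlations of -0.04 to 0.18 over 11 pairs, 2 of them over 0.1. Those 2 pairs joined the MI groups, replicate 1 at 0.18 and replicate 2 at 0.13. With the replicate number as a block 4139, 3576 and 215 genes and 8, 6 and 0 of the 10 were called. No scaling moved the median of all genes by over 0.05.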
